A study of Mus musculus with 51 samples.

Results

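The genes described here are 7 genes through which astrocytes handle water, potassium and small solutes: the water channels Aqp4 and Aqp9, the inward rectifier potassium channels Kcnj10 and Kcnj16, and the connexins Gja1, Gjb6 and Gjb2. They are named by their function and come from 22359 coding genes of the mm9 annotation, and they were chosen with earlier results of these data known. For each gene, every H3K27ac and H3K4me1 peak was taken that overlapped the gene body or the 40 kb on either side of it, hereafter its window. The 40 kb were set to take in sites known to lie upstream of Aqp4 in these data. The windows held 423 of the 803595 peaks in 6 lists, 1 list for each of 2 histone marks at each of 3 stages.

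Aquaporins let water cross the cell membrane, and Aqp4 is the water channel of the astrocyte endfeet that line brain vessels, while Aqp9 also passes glycerol and other small solutes. Kcnj10 (Kir4.1) and Kcnj16 (Kir5.1) form the channels through which astrocytes clear potassium released by active neurons. Gja1 (connexin 43), Gjb6 (connexin 30) and Gjb2 (connexin 26) build the gap junctions that couple astrocytes into a network. Of the marks, H3K27ac is found at active promoters and enhancers, and H3K4me1 at enhancers whether active or not and along the edges of promoters.

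The study followed mouse embryonic stem cells of the C57/BL-6 background through a course of astroglial differentiation in culture. The astroglial progenitors (aNPC) grew with N2, EGF and FGF-2. Early astrocytes (eA) had spent 1 day, and late astrocytes (lA) 5 days, in a differentiation medium of DMEM with 1% FBS and LIF. Chromatin was precipitated with an antibody to either mark from 2 replicates per stage, whose aligned reads the authors merged before calling peaks without an input control.

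Since the replicates are merged, the spread between them is not known for any value below, and no test was made. For aNPC, eA and lA the lists held 79413, 83433 and 92700 peaks of H3K27ac and 154238, 185478 and 208333 of H3K4me1. Their sequencing depth is unknown, so the strength of a peak is given as its rank, the percentage of peaks in its own list with a lower −log10 q, and an absent peak means only that none passed the caller's threshold. A peak carried by few cells and a weak peak in all cells cannot be told apart. H3K27ac overlapped a promoter, defined as the 1 kb before a coding start and the 100 bp after it, at all 4 neural progenitor markers at each stage, at 5, 4 and 4 of 6 astrocyte markers, and at 2, 1 and 1 of 5 neuron markers. It overlapped none of the promoters of 6 oligodendrocyte, 4 microglia, 3 endothelium and 3 embryonic stem cell markers. With 1 kb on both sides of the start, Olig2, an oligodendrocyte lineage marker, had H3K27ac at every stage, and the neuron markers with H3K27ac numbered 2, 3 and 1. Among the astrocyte markers, Gfap had promoter H3K27ac at every stage, S100b in aNPC only and Aldh1l1 at none.

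Aqp9, Kcnj16 and Gja1 had their H3K27ac peaks of highest rank inside the gene, past the start that the annotation lists first, and Gjb2 had H3K4me1 without H3K27ac at its start. The sequences at these places, 201 bp each from mm9 and written 5′ to 3′ along the strand of the gene, are shown to give their position and their content of CpG, which is in capitals. The Aqp9 window (chr9:71015488-71015688, minus strand) surrounds the lA summit, in the first intron of the coding transcript Aqp9-003, where it overlaps exons of 2 non-coding transcripts. The Kcnj16 window (chr11:110858912-110859112, plus strand) is intronic and begins at the base after the first exon of Kcnj16-002. The Gja1 window (chr10:56098669-56098869, plus strand) surrounds the lA summit in the first intron, and the Gjb2 window (chr14:57723540-57723740, minus strand) is intergenic and ends at the base before the start site.
Aqp9 first-intron element: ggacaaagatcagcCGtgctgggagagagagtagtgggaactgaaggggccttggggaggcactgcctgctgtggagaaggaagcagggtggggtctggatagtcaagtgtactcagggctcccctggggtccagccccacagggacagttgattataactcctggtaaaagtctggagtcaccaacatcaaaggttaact
Kcnj16 internal start: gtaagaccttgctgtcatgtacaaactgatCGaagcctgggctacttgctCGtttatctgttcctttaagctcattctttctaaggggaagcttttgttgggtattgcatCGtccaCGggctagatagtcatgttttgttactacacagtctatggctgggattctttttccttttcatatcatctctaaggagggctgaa
Gja1 first-intron element: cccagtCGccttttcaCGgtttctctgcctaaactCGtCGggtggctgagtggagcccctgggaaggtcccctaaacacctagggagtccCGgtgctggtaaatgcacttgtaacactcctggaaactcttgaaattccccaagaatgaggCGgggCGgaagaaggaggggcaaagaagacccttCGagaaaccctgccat
Gjb2 promoter: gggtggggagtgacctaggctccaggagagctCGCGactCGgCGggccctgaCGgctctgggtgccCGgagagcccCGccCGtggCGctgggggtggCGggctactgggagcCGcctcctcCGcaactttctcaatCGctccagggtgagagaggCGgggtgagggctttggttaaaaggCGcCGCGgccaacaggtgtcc

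CpG dinucleotides numbered 17 in the 201 bp upstream of Gjb2, against a median of 7 upstream of 22354 coding genes, and 22.2% of these genes had at least 17. Of the other genes described here, the same window held 12 CpG at Kcnj10, 7 at Aqp9, 5 at Gja1, 5 at Gjb6, 3 at Kcnj16 and 1 at Aqp4. The Gjb2 start therefore lay in the most CpG-rich sequence of the 7. In the windows around the summits inside Gja1 and Aqp9, the counts were 8 and 1, with a median of 2 over all lA H3K27ac summits. The Kcnj16 window, which was moved off the exon and is not centered on the summit, held 4.

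Farther from the starts, 5 elements show the different histories of acetylation. The Kcnj10 intron element (chr1:174280531-174280731, plus strand) had H3K27ac at every stage, and the Kcnj10 gained element (chr1:174288869-174289069, plus strand), also in an intron, had it in eA and lA but not in aNPC. The Gjb2-Gjb6 intergenic element (chr14:57735207-57735407, minus strand) had H3K27ac at every stage at very different ranks, and the gained element beside it (chr14:57733671-57733871, minus strand), in an intron of the predicted gene Gm4491, had weak peaks of it in eA and lA. The Gjb6 upstream element (chr14:57779777-57779977, minus strand) is intergenic and had H3K27ac in aNPC and lA but not in eA. The windows of 201 bp around the summits were read from mm9, and capitals mark exact matches to any of 5 motifs.
Kcnj10 intron element: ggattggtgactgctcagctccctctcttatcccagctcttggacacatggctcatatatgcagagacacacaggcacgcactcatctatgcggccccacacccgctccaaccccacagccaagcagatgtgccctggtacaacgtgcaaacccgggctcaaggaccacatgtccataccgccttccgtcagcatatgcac
Kcnj10 gained intron element: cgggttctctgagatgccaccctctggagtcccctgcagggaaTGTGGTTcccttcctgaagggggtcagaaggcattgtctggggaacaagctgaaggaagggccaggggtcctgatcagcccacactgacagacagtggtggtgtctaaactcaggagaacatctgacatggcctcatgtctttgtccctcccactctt
Gjb2-Gjb6 intergenic element: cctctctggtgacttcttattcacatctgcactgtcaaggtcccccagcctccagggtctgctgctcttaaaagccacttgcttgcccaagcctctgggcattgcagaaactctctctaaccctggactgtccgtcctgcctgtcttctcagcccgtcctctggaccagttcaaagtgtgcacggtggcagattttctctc
Gjb2-Gjb6 gained element: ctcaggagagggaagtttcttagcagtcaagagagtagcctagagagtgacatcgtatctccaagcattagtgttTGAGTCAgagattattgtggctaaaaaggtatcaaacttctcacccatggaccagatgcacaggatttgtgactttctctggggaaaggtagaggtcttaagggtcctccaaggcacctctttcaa
Gjb6 upstream element: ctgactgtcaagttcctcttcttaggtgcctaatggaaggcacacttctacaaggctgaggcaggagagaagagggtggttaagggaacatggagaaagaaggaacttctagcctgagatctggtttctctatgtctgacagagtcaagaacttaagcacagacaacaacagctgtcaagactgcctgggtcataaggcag

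The motifs were searched on both strands as the letters TGCCAAG (an NF1 half-site), TGACTCA (an AP-1 site), TGTGGTT (a RUNX site), TTCCNGGAA (a STAT site) and ACAATGG (a SOX site). Of all lA H3K27ac summit windows of 201 bp, 4.28% held the NF1 half-site, 3.49% the AP-1 site, 3.93% the RUNX site, 0.694% the STAT site and 2.64% the SOX site. The Kcnj10 gained element held a RUNX match and the Gjb2-Gjb6 gained element an AP-1 match. Among the 39 distal sites near the 7 genes that had H3K27ac in eA or lA but not in aNPC, the RUNX site was found at 3, the AP-1, STAT and SOX sites at 1 each and the NF1 half-site at 0, and no window held more than 1 of the motifs. Over all 56427 such distal sites, the shares were 4.30% for RUNX, 4.33% for AP-1, 0.753% for STAT, 3.02% for SOX and 4.77% for NF1. These counts describe letters in the windows and not binding.

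Together, the windows of the 7 genes held 28, 46 and 66 H3K27ac peaks at the successive stages aNPC, eA and lA. Aqp4 accounted for most of the step from aNPC to eA, and without its window the counts were 25, 30 and 47. By gene, Aqp4 had 3, 16 and 19 such peaks, Aqp9 had 2, 6 and 9, and Kcnj10 had 10, 14 and 21. In these 3 windows the number of acetylated peaks was higher at each later stage. A site called in pieces counts more than once, however. The peaks covered 1680, 11388 and 11401 bp for Aqp4 and 1148, 2545 and 3440 bp for Aqp9. For Kcnj10 they covered 6893, 10538 and 10667 bp, so that its cover, like that of Aqp4, hardly changed from eA to lA. Gja1 and Gjb2 both had 1, 3 and 3 peaks, Gjb6 had 4, 3 and 5, and Kcnj16 had 8, 4 and 9. The lowest count of Kcnj16 was that of eA, but its peaks covered 5757, 4883 and 4837 bp, with no rise from eA to lA. The site at its last coding start alone was called as 2, 1 and 3 peaks.

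A gain of 13 or more H3K27ac peaks from aNPC to eA, as in the Aqp4 window, was found in 132 of the 22359 windows of coding genes (0.590%). The width of the window was chosen to include distal Aqp4 sites that belong to this gain, so the share is a description. The median difference over all windows was 0. Kcnj16, which had 4 peaks fewer in eA than in aNPC, lay at the other end, with a lower difference in only 4.24% of the windows. With lists cut to the same number of peaks, the counts were again 3, 16 and 19 for Aqp4 and 8, 4 and 8 for Kcnj16. For the connexins Gjb6 and Gjb2 they became 4, 3 and 2 and 1, 3 and 1, so that their lA counts did not hold. From eA to lA, Kcnj10 had 7 more peaks, a gain below which 97.8% of the windows lay. Its counts in eA and lA were 14 and 19 with lists of equal length, and 12 and 15 with a −log10 q of at least 5, so the size of this gain depended on weak peaks. It also included sites called in pieces, such as the Kcnj10 intron element, with 1 peak in eA and 2 in lA.

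The H3K4me1 peaks numbered 78, 101 and 104 in the windows together. Aqp4 had 10, 20 and 17, Aqp9 had 9, 15 and 22, Kcnj16 had 17, 19 and 22, and Gja1 had 6, 10 and 7. Gjb6 had 9, 14 and 12 and Gjb2 had 5, 10 and 10. Kcnj10 had 26 peaks in aNPC against 23 in eA and 24 in lA, and 94.3% of the windows had fewer than its 26, but only 8, 6 and 6 of them had Kcnj10 as the nearest start. The other 6 windows held more H3K4me1 peaks in eA than in aNPC, and the median difference over the windows of all coding genes was 1. With lists cut to the same number of peaks, this was not so for Kcnj16, with 17 at both stages, nor for Gja1, with 6 in aNPC and 5 in eA. The Gja1 first-intron element alone was called as 2, 5 and 1 H3K4me1 peaks over the stages, so the Gja1 counts include a site in pieces.

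**Figure D1:**
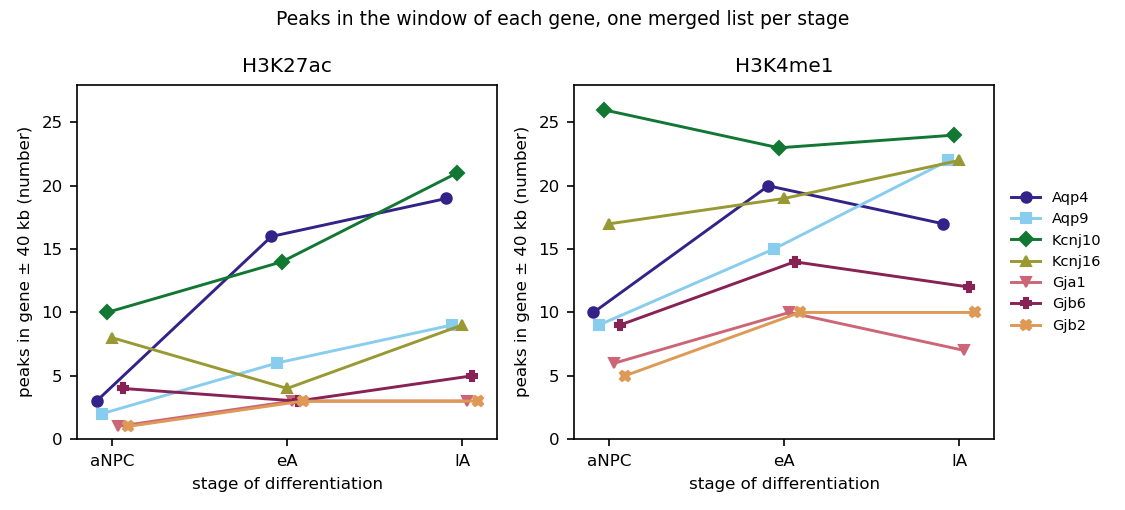
Number of H3K27ac peaks (left) and H3K4me1 peaks (right) in the window of each gene (gene body with 40 kb on each side) in aNPC, eA and lA. Each point is a count from 1 list made from 2 merged replicates, so there are no error bars, and points are shifted sideways to keep Gja1 and Gjb2 apart, which both have 1, 3 and 3 H3K27ac peaks. Aqp4 climbs from 3 to 16 H3K27ac peaks between aNPC and eA, and Kcnj10 has 23 to 26 H3K4me1 peaks at every stage.

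At the promoter itself, the number of genes with H3K27ac differed by stage. In aNPC it overlapped a promoter of 1 of the 7 genes (Kcnj16), in eA of 2 (Kcnj16 and Gja1) and in lA of 4 (Kcnj16, Gja1, Aqp9 and Aqp4). Of all coding genes, 50.6%, 53.2% and 48.2% had such a peak. With 1 kb on both sides of the start the counts were 4, 4 and 5 of 7, against 52.4%, 55.4% and 51.7% of all coding genes, since the peaks of Aqp9, Kcnj10 and Gja1 lay just inside the gene. H3K4me1 overlapped the promoter of 4, 5 and 4 of the 7, beside 55.4%, 53.6% and 52.7% of all coding genes, and Aqp4 was missing from the aNPC count only by the edge of its peak. At each of the 3 genes that entered the H3K27ac count after aNPC, a peak that reached into the promoter had overlapping peaks at an earlier stage that stopped short of it. For Gja1 and Aqp9 the count thus depended on where the promoter was taken to end. Aqp4 also had a weaker lA peak at its second coding start that overlapped no earlier peak. With 1 kb on both sides it still had promoter H3K27ac in lA only.

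**Figure D2:**
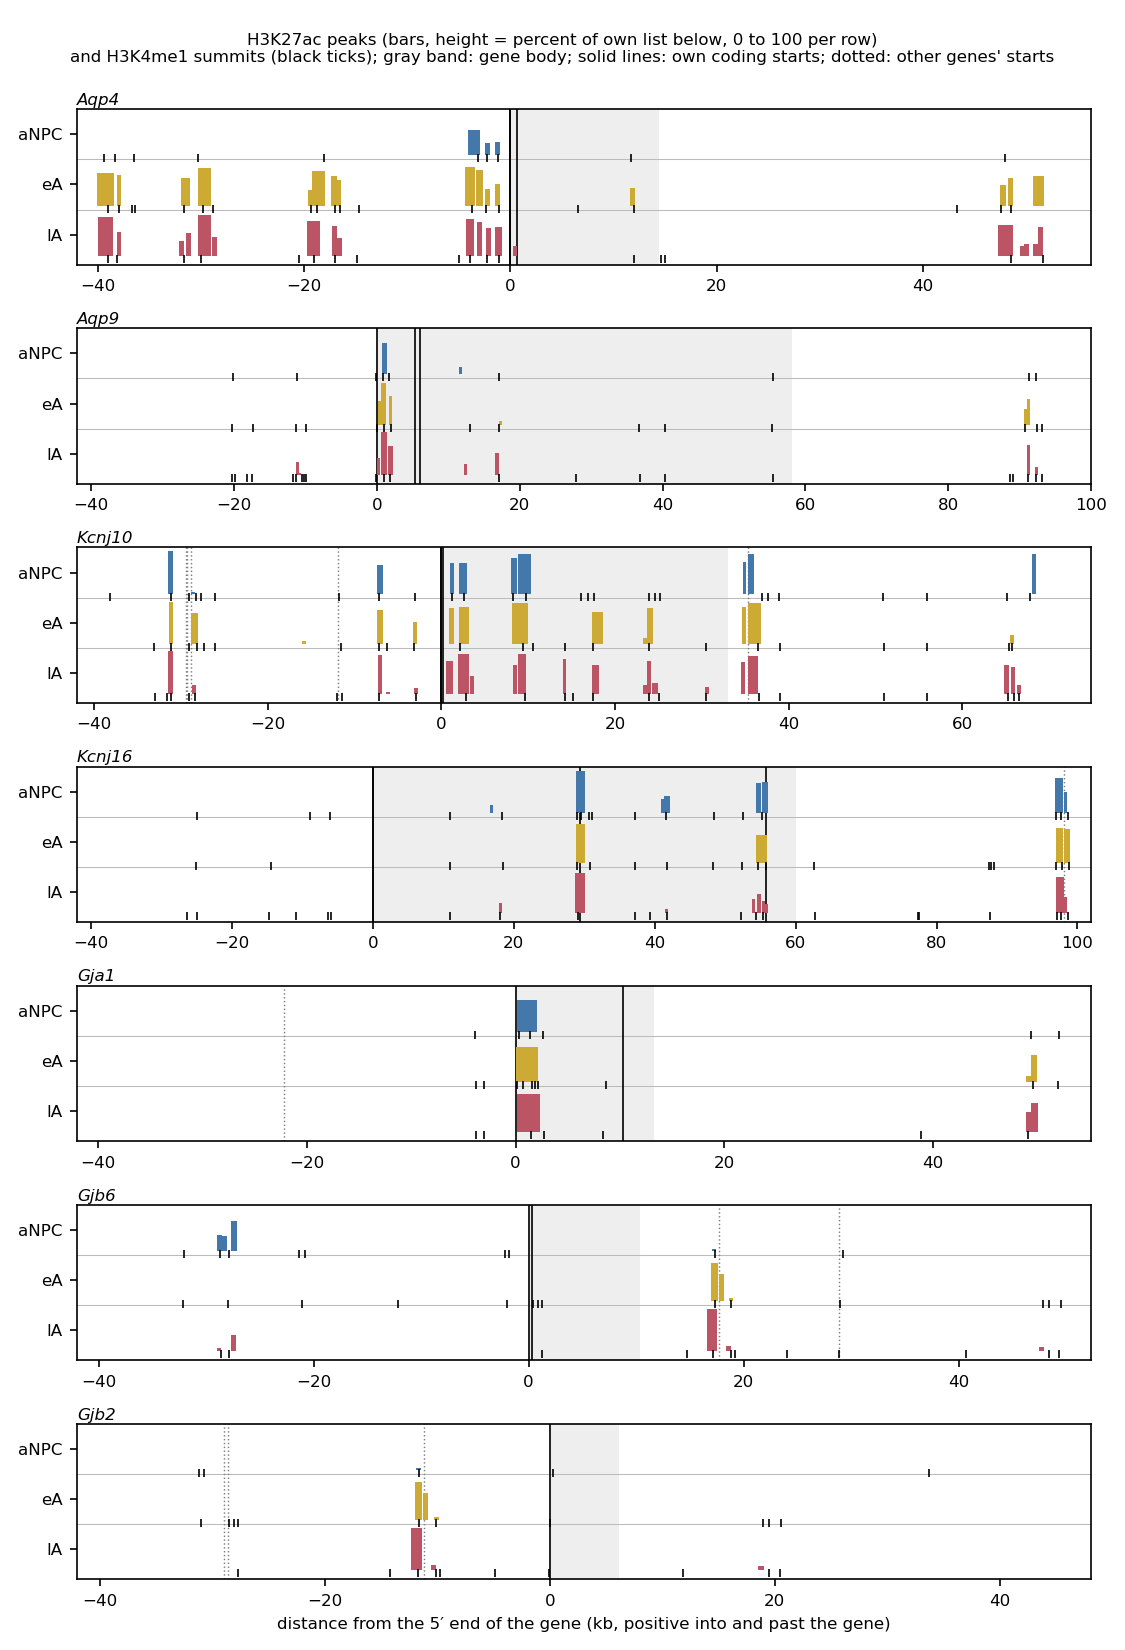
Peaks around each of the 7 genes, drawn by distance from the 5′ end of the gene in kb, with 1 row for each of aNPC, eA and lA. Colored bars are H3K27ac peaks, whose height in the row is the percentage of the peaks of that list with a lower −log10 q, black ticks are H3K4me1 summits, the gray band is the gene body, solid lines are its coding starts, and dotted lines are starts of other coding genes. Aqp4 has 3 acetylated peaks in aNPC, all with summits within 4 kb upstream of its start, and in eA further groups on both sides of the gene.

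Aqp4 lies on the minus strand of chr18:15547903-15562193, and no other coding start lay in its window. In aNPC its H3K27ac peaks formed a block directly upstream of the gene, the strongest of them with a rank of 60.1%. The site of that peak, centered 3494 bp upstream of the start, ranked at 89.99% in eA and 85.6% in lA. The site of the block nearest to the gene, centered 1174 bp upstream, had H3K27ac at every stage, with ranks of 32.6%, 49.9% and 67.4%, and overlapped the promoter only in lA. H3K4me1 there had the opposite order, with ranks of 95.03%, 60.2% and 58.6%, and its aNPC peak also stopped short of the promoter. At the site centered 3494 bp upstream, H3K4me1 likewise ranked lower at each later stage, at 79.4%, 71.0% and 54.4%. A weaker peak at the second coding start, with a rank of 23.5%, was found in lA only. In eA, 10 distal sites had H3K27ac that had been without it in aNPC, and 3 more had it in lA only. They formed groups centered 16585 to 18839 bp, 28702 to 31556 bp and 37940 to 39240 bp upstream, and 48004 to 51178 bp from the 5′ end on the downstream side, and a single site, in eA only, lay inside the gene.

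The strongest of the distal Aqp4 sites in lA was the one centered 29651 bp upstream, whose rank was 88.3% in eA and 96.4% in lA. Its H3K4me1 was present at every stage, with ranks of 64.9%, 89.1% and 92.4%. The site centered 39240 bp upstream ranked 76.9% in eA and 91.7% in lA for H3K27ac, with H3K4me1 at 52.3%, 78.8% and 91.3%. Beside it, the site centered 37940 bp upstream ranked lower for H3K27ac in lA (56.1%) than in eA (71.5%). At the site centered 18839 bp upstream, H3K27ac ranked 80.5% and 82.1%, whereas H3K4me1 ranked 70.3%, 50.9% and 37.4%. These H3K4me1 ranks do not follow a single peak. The aNPC peak, with its summit 18051 bp upstream, did not overlap those of eA and lA, whose strongest summits lay 18774 and 19046 bp upstream. An H3K4me1 peak thus overlapped all 4 of these sites in aNPC, where H3K27ac was absent. At the sites centered 29651 and 37940 bp upstream only its edge did, with the summit outside the site, at 30310 and 38292 bp upstream. Over the 13 distal Aqp4 sites without H3K27ac in aNPC, H3K4me1 was present at 6, beside 49.2% of such sites in the genome.

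Aqp9 lies on the minus strand of chr9:70958466-71016489 and has 3 coding starts, at 25, 5393 and 6049 bp from its 5′ end. Its strongest peak lay in the first intron of Aqp9-003, with the H3K27ac summit at 871, 876 and 901 bp from the 5′ end in aNPC, eA and lA and ranks of 72.9%, 97.2% and 99.2%. At that same place H3K4me1 ranked 99.8%, 94.9% and 76.9%. The order of the ranks over the stages was therefore opposite for the marks at this element, whose sequence is printed above. The promoter around the first start had H3K4me1 at every stage, with ranks of 46.3%, 89.5% and 94.3%, and H3K27ac in lA only, with a rank of 39.2%. The eA peak of the same site, with a rank of 56.5%, stopped short of the promoter. The coding starts at 5393 and 6049 bp had no peak of either mark at any stage.

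Near Aqp9, another intronic element centered 1910 bp from the 5′ end had H3K27ac in eA and lA, with ranks of 66.1% and 67.2%, and H3K4me1 from aNPC onward, with ranks of 25.5%, 87.9% and 91.7%. A distal site centered 91065 bp from the 5′ end, past the end of the gene, also had H3K27ac from eA onward, at 60.05% and 70.4%, and H3K4me1 at every stage. The other Aqp9 sites without H3K27ac in aNPC were weaker, and 5 of its 10 distal sites were in lA only, beside 21.7% of all distal sites. Of its 8 distal sites without H3K27ac in aNPC, 6 had H3K4me1 at that stage, beside 49.2% of such sites in the genome.

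Kcnj10 lies on the plus strand of chr1:174271341-174304216. Neither mark had a peak in the promoter of either of its coding starts at any stage. Its nearest H3K27ac peaks lay in the first intron, with summits 1326, 1268 and 1191 bp downstream of the start and ranks of 72.2%, 84.3% and 77.9%, and again at 2271, 2314 and 2210 bp with ranks of 72.9%, 85.04% and 92.8%. H3K4me1 overlapped the former in aNPC only and the latter at every stage, with ranks of 82.7%, 75.8% and 83.5%. Farther in, the element with a site center at 9170 bp had both marks at every stage, with H3K27ac at 92.6%, 94.8% and 94.0% and H3K4me1 at 97.2%, 98.5% and 98.7%. It was the place within the Kcnj10 gene where both marks ranked highest, and its site spanned 2274 bp.

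The Kcnj10 intron also held sites that gained H3K27ac in eA. The gained element with its eA summit at 17628 bp ranked 74.7% in eA and 67.9% in lA, and its H3K4me1 ranked 68.6%, 94.2% and 82.4% over the stages. A similar element with its eA summit at 23959 bp ranked 83.6% and 77.6%, and its H3K4me1 ranked 80.9%, 93.3% and 74.4%. At both elements H3K4me1 preceded H3K27ac and had its highest rank in eA.

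Part of the Kcnj10 window belongs to neighbouring genes. It holds the starts of Igsf8, of Kcnj9 (another inward rectifier) and of Pigm (an enzyme of GPI anchor synthesis), and of its 10, 14 and 21 H3K27ac peaks only 4, 5 and 8 had Kcnj10 as the nearest start. The highest ranks of the window, 99.8%, 97.0% and 99.7%, belonged to a distal site centered at −31208 bp from the Kcnj10 start, inside the body of Igsf8 and 1769 bp from one of its starts. A site centered 68326 bp downstream of the Kcnj10 start had H3K27ac in aNPC only, with a rank of 92.5%, and no H3K4me1 at any stage. Which gene these sites act on was not tested.

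Kcnj16 lies on the plus strand of chr11:110829347-110889282, with coding starts at 0, 31, 29454 and 55827 bp from its 5′ end. Neither mark had a peak at the promoters of the first and second starts at any stage. The peak with the highest rank lay at the internal start of Kcnj16-002, where H3K27ac ranked 97.3%, 91.7% and 92.7% with summits 29581, 29581 and 29564 bp from the 5′ end of the gene. H3K4me1 there ranked 94.6%, 87.3% and 92.7%. The last start, of Kcnj16-004, also had both marks at every stage, with H3K27ac at 70.9%, 65.3% and 44.8% and H3K4me1 at 79.8%, 71.9% and 66.3%. All acetylation at a Kcnj16 promoter therefore lay at internal starts, and it was present from aNPC onward.

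Between the starts, Kcnj16 had an intronic site centered 41770 bp from its 5′ end with H3K27ac in aNPC, where it ranked 38.6%, none in eA and a rank of 9.95% in lA, while H3K4me1 was present at every stage. In all, 2 of its 5 distal sites had H3K27ac in aNPC only, 1 in aNPC and lA, and 2 in lA only. Over all distal sites these patterns made up 23.9%, 3.63% and 21.7%. The 5 sites were weak, with no H3K27ac rank above 38.6%. Its window also reached the start of Kcnj2, another inward rectifier, which lies 98131 bp from the 5′ end and had 2 H3K27ac peaks at its promoter in each list.

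Gja1 lies on the plus strand of chr10:56097106-56110225. A single broad H3K27ac peak reached from its first exon into its first intron at every stage, with widths of 1932, 2104 and 2203 bp and ranks of 74.4%, 82.6% and 88.4%. Its summit lay 1535, 1592 and 1663 bp downstream of the start. Its near edge lay 125, 62 and 99 bp past the start at the successive stages, so that the peak reached the promoter, which ends at 100 bp, only in eA and lA. The absence of promoter H3K27ac in aNPC thus rests on the edge of a peak that all stages share. H3K4me1 over the same site ranked 54.2%, 37.8% and 19.3%.

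The other H3K27ac of Gja1 appeared in eA, downstream of the gene, and its second coding start, 10247 bp from the 5′ end, had no promoter peak of either mark. Both of its distal sites, centered 49113 and 49707 bp from the 5′ end, had H3K27ac in eA and lA and none in aNPC, and the stronger of them ranked 63.5% and 66.9%. They had H3K4me1 at every stage, with ranks of 31.9%, 43.3% and 65.1% at the stronger site.

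Gjb6 and Gjb2 are neighbours on the minus strand of chromosome 14, at chr14:57742140-57752448 and chr14:57717437-57723539, and their windows overlap. Neither had H3K27ac within 1 kb of a start at any stage. H3K4me1 was found at the Gjb2 start in every list, with ranks of 98.8%, 98.3% and 96.4%, over the CpG-rich sequence printed above. At the Gjb6 promoter a single H3K4me1 peak was found, in eA, with a rank of 20.1%. The starts of these neighbouring connexins thus differed in H3K4me1 and were alike in having no H3K27ac peak.

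Between the genes, the Gjb2-Gjb6 intergenic element was centered at −11845 bp from the Gjb2 start, and its H3K27ac ranked 2.62% in aNPC but 88.4% in eA and 97.8% in lA. The width of the peak was 319, 627 and 973 bp at these stages. Its −log10 q in aNPC was 2.98, so under a minimum of 5 the element would have H3K27ac in eA and lA only. H3K4me1 ranked high there at every stage, at 97.8%, 95.9% and 94.4%. In aNPC the element thus ranked near the top of the H3K4me1 list and near the bottom of the H3K27ac list. It lies upstream of the predicted gene Gm4491, within its promoter, and was therefore not counted among the distal sites. The gained element beside it was weak, with H3K27ac at 6.64% in eA and 12.1% in lA, and it had no H3K4me1 in aNPC. Its −log10 q of 3.34 and 3.93 would leave it without H3K27ac at any stage under a minimum of 5, and with lists of equal length its lA peak was lost.

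On the far side of Gjb6, a group of 3 sites centered 27430, 28274 and 28751 bp upstream had H3K27ac in aNPC and none in eA. The strongest of them ranked 70.2% in aNPC and 38.7% in lA, and its H3K4me1 was present throughout, at 96.1%, 95.3% and 86.6%. The middle site had H3K27ac in aNPC only, with a rank of 34.6%. The ranks at the last site were 36.4% in aNPC and 8.13% in lA. This group and the intergenic element had opposite orders of H3K27ac rank between aNPC and the later stages.

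**Figure D3:**
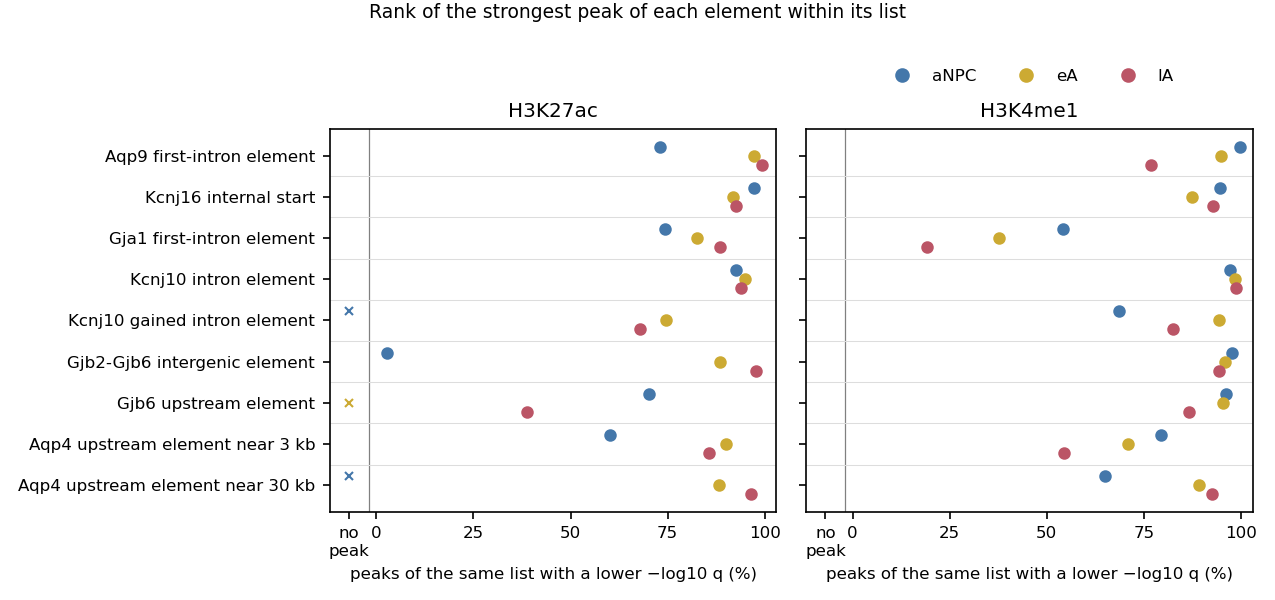
Rank of the strongest H3K27ac peak (left) and H3K4me1 peak (right) at 9 elements of the 7 genes, as the percentage of the peaks of the same list with a lower −log10 q. Circles are ranks in aNPC, eA and lA, and crosses mark a stage without a peak. The Gjb2-Gjb6 intergenic element moves from 2.62% to 97.8% for H3K27ac and stays above 94% for H3K4me1, and the Kcnj10 intron element stays above 92% for both marks.

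H3K27ac peaks of the stages that overlapped were joined to 68 sites, of which 13 lay at a promoter and 55 were distal. Of the 55 distal sites, 39 had H3K27ac in eA or lA and none in aNPC, a share set beside 48.7% of the 115804 distal sites in the genome. Without Aqp4 the count was 26 of 40. H3K27ac in both eA and lA but not in aNPC was found at 19 of the 55 (34.5%), against 15.3% of all distal sites, and 9 of these 19 were Aqp4 sites, the farthest upstream of which the width of the window was set to include. Without Aqp4 it was found at 10 of 40. H3K27ac in aNPC only was found at 5 of the 55 (9.09%), against 23.9%. Sites of 1 window lie close together and are not independent, so no test was made of these shares.

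H3K4me1 in aNPC marked 21 of the 39 distal sites that had no H3K27ac at that stage, beside 49.2% of such sites in the genome. For the 22 sites with H3K27ac from eA, it was present in aNPC at 15, beside 64.8% in the genome. For the 17 sites with H3K27ac in lA only, it was present in aNPC at 6, beside 29.7%, and in eA at 11, beside 60.2%. The shares near the 7 genes were close to those of the genome in each case. By gene, H3K4me1 in aNPC was found at both gained distal sites of Gja1 and of Kcnj16, at 5 of 12 for Kcnj10 and at 0 of 2 for the Gjb2 and Gjb6 windows, which share these sites.

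**Figure D4:**
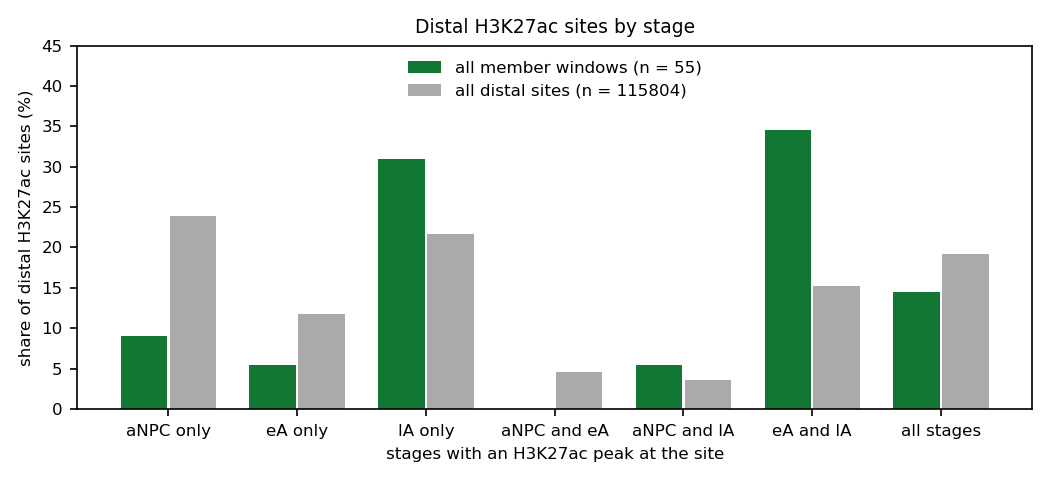
Share of distal H3K27ac sites (in %) by the stages at which they had a peak, for the 55 sites in the windows of the 7 genes (green) and for all 115804 distal sites (gray). Sites with H3K27ac in eA and lA make up 34.5% near the 7 genes and 15.3% in the genome, and sites in aNPC only make up 9.09% and 23.9%.

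Relatives and partners of the 7 genes were looked up by their promoters. Over the stages, promoter H3K27ac was found at 1, 1 and 2 of 9 other aquaporins, 3, 5 and 1 of 13 other inward rectifiers, and 3, 7 and 5 of 17 other connexins. It was found at 8, 9 and 8 of 10 genes for proteins of the endfoot membrane and of the complex that anchors Aqp4 there, such as dystroglycan (Dag1), and at 4, 5 and 3 of 6 further genes of potassium uptake. Of the gap junction partners and pannexins, 3 of 5 had it at each stage. The shares of all coding genes were 50.6%, 53.2% and 48.2%, which the last of these lists lay near. Of these lists of relatives and partners, the endfoot genes had the largest share of marked promoters, and Trpv4, a cation channel, was the only one of them without H3K27ac at the promoter at any stage.

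Some relatives had the same presence and absence of promoter peaks over the 6 lists as one of the 7 genes. Aqp1 shared the pattern of Aqp9, H3K4me1 at every stage and H3K27ac in lA only, which 110 of all coding genes had. Panx3 shared that of Gjb6, H3K4me1 in eA only, found at 151 coding genes. The pattern of Gjb2, H3K4me1 at every stage without H3K27ac, was more common, at 1209 coding genes, among them Gja3, Gjd2, Kcnj13, Kcnj15 and Kcnj6. The patterns of Kcnj10, no promoter peak in any list, and of Kcnj16, both marks in every list, were those of 7632 and 7580 coding genes, and were shared by Aqp12, Aqp2, Aqp3, Aqp5 and Gja10 and by Aqp11, Atp1b2, Dag1, Dtna and Dtnb. The patterns of Aqp4 and Gja1 were found at 45 and 5 coding genes, none of them in the lists. With 1 kb on both sides of the start, Aqp9, Gjb6 and Kcnj10 no longer matched the genes named with them, while Gjb2 and Kcnj16 still did.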

How the data were processed

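H3K27ac and H3K4me1 ChIP-seq of aNPC, eA and lA were used in the form of 6 peak lists. According to the study's methods, the authors aligned reads uniquely to mm9 with Bowtie, merged the 2 replicates of each stage with SAMtools (0.1.19 in the submitters' processing notes) and called peaks with MACS2 at default settings without input. The deposited fold enrichment, a ratio to a background that the caller estimates, and the −log10 q-value at the summit are the authors' values. Fold was not used, and −log10 q served only to rank or filter peaks within a list. Depth is unknown, so no interval could be given.

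Mitochondrial peaks were left out. Genes came from GENCODE M1 for mm9, and peaks overlapping by at least 1 bp were joined to sites. A site was distal if it overlapped no promoter of any coding gene. The overlap and joining steps were tested on simulated intervals. The members, gene lists and motifs were chosen with earlier results of these data known. The genes named are the 7 members, genes with a start in their windows, and listed genes with a member's promoter pattern (at most 5 each, in alphabetical order) or none. Some genes that meet this rule are not reported here. Python 3.11.15 and matplotlib 3.10.9 were used. Of the 51 samples of the series, 8 RNA-seq samples, whose title and description disagree, were put in no group, and RNA-seq and knockdown samples were not analysed here.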

Additional observations from a re-analysis of the deposited data

How the results depend on the processing

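Alternatives gave 68 values for 14 results, of which 52 stayed within 1.5 times the reported value and 16 moved further. With a promoter of 1 kb on both sides, the number of the 7 genes with promoter H3K27ac was 4 in aNPC and 4 in eA. With 2.5 kb on both sides, a choice made after seeing the data, it was 5 and 5, and promoter H3K4me1 was found at 7 in aNPC and 7 in lA. Asking that the summit lie inside left H3K27ac at 0 genes in eA and 2 in lA, H3K4me1 at 2 in aNPC, and H3K4me1 in aNPC at 13 of the gained distal sites. With 20 kb on each side, H3K27ac peaks numbered 30 in eA and 42 in lA, H3K4me1 peaks 49 in aNPC and 66 in eA, and gained distal sites 23, of which 11 had H3K4me1 in aNPC. The narrower window leaves out sites by construction. For the others the cause was not tested. A −log10 q of at least 5, lists of equal length, only peaks nearest to one of the 7 genes and, chosen after seeing the data, sites distal to the promoters of the 7 genes alone moved none of these 14 results by over 1.5 times. Counts of single windows moved more: with lists of equal length, H3K27ac in lA went from 5 to 2 for Gjb6 and from 3 to 1 for Gjb2, and H3K4me1 in eA from 10 to 5 for Gja1. With a −log10 q of at least 5, H3K27ac went from 2 to 1 for Aqp9 in aNPC, from 5 to 2 for Gjb6 in lA, and from 1 to 0 in aNPC and 3 to 1 in lA for Gjb2. H3K4me1 went from 6 to 2 in aNPC and 10 to 5 in eA for Gja1, from 14 to 8 for Gjb6 in eA, and from 5 to 3 in aNPC and 10 to 5 in eA for Gjb2. No paired analysis was possible because the replicates are merged in each list, and for the same reason no replicate could be left out.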

Other observations

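Many places near the 7 genes had H3K4me1 without H3K27ac at any stage. Joined over the stages, H3K4me1 formed 125 sites in the windows, of which 74 (59.2%) overlapped no H3K27ac peak, the same share as over all 251555 H3K4me1 sites (59.2%). By gene, such sites made up 8 of 23 at Aqp4, 14 of 29 at Kcnj10, 13 of 20 at Aqp9, 7 of 10 at Gja1, 18 of 25 at Kcnj16, 13 of 17 at Gjb6 and 11 of 14 at Gjb2. Those at Aqp4 were the smallest share of its window among the 7. Of these 8, 7 were absent in aNPC, beside 88132 of 148870 such sites over the genome. In the other windows this ranged from 3 of 14 at Kcnj10 to 11 of 13 at Aqp9.

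Apart from the Gjb2 start, the site with H3K4me1 only that ranked highest at every stage had its summit 50938 bp downstream of the Kcnj10 start, past both Kcnj10 and Pigm. Its ranks over the stages were 98.4%, 93.9% and 98.0%. Inside Aqp9, a site with its summit 27831 bp from the 5′ end had H3K4me1 in lA only, with a rank of 91.1%. Upstream of Gja1, the site with its summit at −3765 bp had H3K4me1 ranks of 10.6%, 47.1% and 67.9%, and the one at −3064 bp had no peak in aNPC and ranks of 42.7% in eA and 64.5% in lA. These sites were picked after their values were seen.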
